A study of Mus musculus with 4 samples.

Results

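Snhg1, Snhg3, Snhg5, Snhg6, Snhg8, Snhg12 and Gas5 are noncoding genes that host small nucleolar RNAs (snoRNAs) in their introns. They were taken as the rows of the deposited count matrix that carry these symbols, and all 7 were present among 24421 gene symbols. The study knocked down Lmna, which encodes lamins A and C, in B16F10 cells, a mouse melanoma line whose strain label is C57BL/6, and asked which transcripts differ from those of control cells. Each group had n = 2 libraries. The shControl cells were transduced with a lentivirus that the labels call a control shRNA and the study's reagent list an empty vector. The shLmna cells were transduced in the same way with a vector carrying a hairpin against exon 8 of Lmna. Both groups were selected with puromycin and grown in the same medium. If the control vector was empty, an effect of carrying a hairpin cannot be told apart from that of lamin A/C loss. Separate cultures or transductions behind the paired libraries are not stated, and the p-values below measure the spread between these libraries, which may be technical.

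A snoRNA host gene is transcribed as a precursor whose introns hold snoRNAs, and each snoRNA is trimmed out of its intron after splicing. Box C/D snoRNAs guide 2′-O-methylation and box H/ACA snoRNAs guide pseudouridylation, mostly of ribosomal RNA. The spliced exons of such hosts have no long reading frame, and those of Gas5 and Snhg1 are known targets of nonsense-mediated decay (NMD), while their transcription starts at a terminal oligopyrimidine (TOP) tract as in ribosomal protein genes.

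In GENCODE vM21 (GRCm38, the same assembly as mm10) the 7 hosts held 27 annotated snoRNAs, and all 27 lay in introns of the transcripts chosen here. Gas5 held 9, Snhg1 held 8 and Snhg12 held 4. Snhg3 and Snhg5 held 2 each, and Snhg6 and Snhg8 held 1 each. The letters TGATGA (box C) followed by CTGA (box D) near the ends were found in 17 of the 27 on the sense strand, and ACA at 3 bases from the 3′ end (box H/ACA) in 5. In the other 5 these letters were not found. All 9 snoRNAs shown here are examples of what each host releases, with the box letters in capitals.
Gm25855, intron of Snhg1 (chr19:8723993-8724064, plus strand): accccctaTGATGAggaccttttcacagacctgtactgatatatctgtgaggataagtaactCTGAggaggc
Snora73a, intron of Snhg3 (chr4:132352775-132352979, minus strand): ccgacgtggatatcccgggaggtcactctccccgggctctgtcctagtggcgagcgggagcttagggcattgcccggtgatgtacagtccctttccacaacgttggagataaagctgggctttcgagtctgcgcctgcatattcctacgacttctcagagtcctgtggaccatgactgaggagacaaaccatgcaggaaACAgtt
Snora73b, intron of Snhg3 (chr4:132352322-132352526, minus strand): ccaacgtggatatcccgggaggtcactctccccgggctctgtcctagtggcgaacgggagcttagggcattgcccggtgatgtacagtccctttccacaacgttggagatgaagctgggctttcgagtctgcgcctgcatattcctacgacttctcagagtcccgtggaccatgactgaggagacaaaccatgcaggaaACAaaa
Snord50a, intron of Snhg5 (chr9:88521529-88521600, minus strand): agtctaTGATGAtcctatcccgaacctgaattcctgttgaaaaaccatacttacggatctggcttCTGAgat
Snord50b, intron of Snhg5 (chr9:88521797-88521868, minus strand): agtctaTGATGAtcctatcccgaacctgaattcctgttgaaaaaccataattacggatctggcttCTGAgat
Snord87, intron of Snhg6 (chr1:9942463-9942549, minus strand): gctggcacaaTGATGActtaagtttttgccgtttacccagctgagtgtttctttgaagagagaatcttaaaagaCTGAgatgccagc
Snora24, intron of Snhg8 (chr3:123507937-123508066, minus strand): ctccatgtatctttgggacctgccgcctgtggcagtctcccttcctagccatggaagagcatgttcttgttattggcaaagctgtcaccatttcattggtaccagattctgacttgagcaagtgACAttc
Snora16a, intron of Snhg12 (chr4:132309465-132309600, plus strand): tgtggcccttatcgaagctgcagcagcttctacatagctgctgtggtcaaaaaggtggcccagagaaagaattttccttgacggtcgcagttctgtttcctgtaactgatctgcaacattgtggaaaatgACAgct
Gm26224, intron of Gas5 (chr1:161035394-161035473, plus strand): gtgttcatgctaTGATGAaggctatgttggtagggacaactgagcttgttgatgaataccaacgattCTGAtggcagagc
Snora73a and Snora73b of Snhg3 differed at 7 of 205 positions, and Snord50a and Snord50b of Snhg5 at 1 of 72. Both hosts thus carried near copies of a single snoRNA, whereas those of Gas5 and Snhg1 were a mixed set of 60 to 126 bases.

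**Figure D1:**
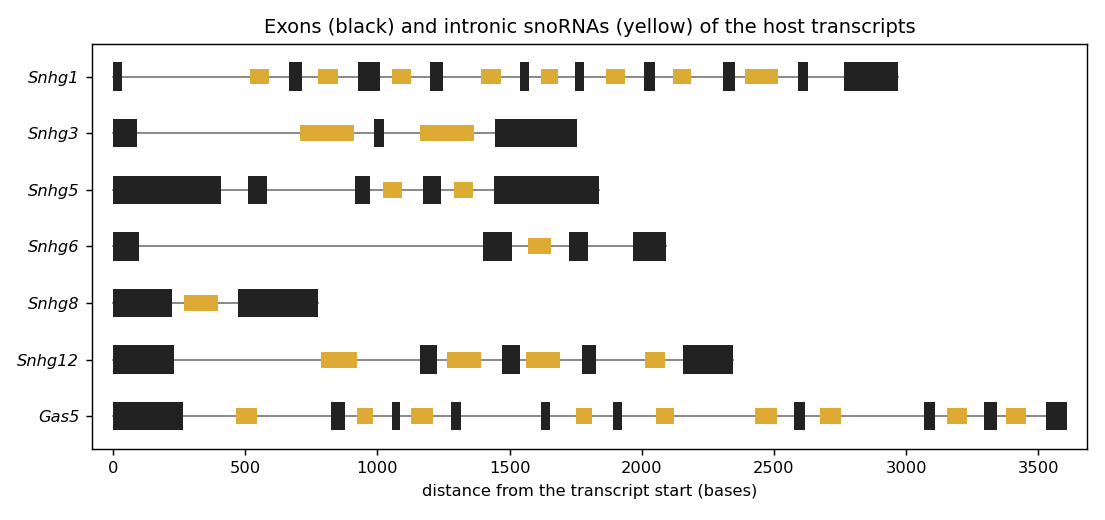
Exons (black boxes) and snoRNAs (yellow boxes) of the 7 host transcripts against the distance from the transcript start in bases, with introns as grey lines. All 27 snoRNAs lie between exons, so a read of a spliced host transcript does not cover them.

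The libraries were made by MARS-seq, which primes on the poly(A) tail and reads the 3′ end of a transcript. The host's polyadenylated RNA was therefore measured, and not its snoRNAs, which have no poly(A) tail. Whether that RNA was spliced was not tested. By exact match of the GENCODE symbol, 8 of the 27 snoRNAs had a row in the matrix. Of these, 3 were at 0 in every library, and no count in any of the 8 rows was above 6. Many of the rest carry Gm names in GENCODE, and rows that may hold them under other symbols were not sought. The values below do not show how much mature snoRNA the cells held. Reads were counted in the last 1000 bases of a gene, and the host transcripts were 400 to 1004 bases long. The last 50 bases of each transcript chosen here are shown, with the polyadenylation signal in capitals. The poly(A) tail that primes the library would be added at this annotated end. Whether these cells used it was not tested, and the annotated span of Snhg3 runs on to chr4:132348014. Where single reads start was not read. The signal read AATAAA in 5 hosts and ATTAAA in 2, on the sense strand.
Snhg1 (chr19:8726394-8726443, plus strand): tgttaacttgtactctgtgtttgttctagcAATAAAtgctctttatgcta
Snhg3 (chr4:132351933-132351982, minus strand): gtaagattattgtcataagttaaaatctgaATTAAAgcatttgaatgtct
Snhg5 (chr9:88521052-88521101, minus strand): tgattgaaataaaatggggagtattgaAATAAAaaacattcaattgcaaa
Snhg6 (chr1:9942025-9942074, minus strand): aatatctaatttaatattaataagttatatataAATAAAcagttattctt
Snhg8 (chr3:123507557-123507606, minus strand): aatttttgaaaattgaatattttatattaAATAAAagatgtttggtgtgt
Snhg12 (chr4:132310975-132311024, plus strand): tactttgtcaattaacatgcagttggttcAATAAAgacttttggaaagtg
Gas5 (chr1:161038486-161038535, plus strand): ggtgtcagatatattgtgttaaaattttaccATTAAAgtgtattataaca

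Library totals ranged from 2494880 to 3808843 counts. Counts were tested with edgeR's quasi-likelihood test over 9150 genes that passed the low-count filter, and levels are given as CPM (a library's counts scaled to a common total) after TMM scaling. Lmna itself was at 875 and 719 CPM in shControl 1 and 2 and at 131 in both shLmna libraries, a log2 fold change of -2.61 (SE 0.142, adjusted p = 7.93e-06 by edgeR with Benjamini-Hochberg adjustment). Of 7 melanocyte lineage markers, Pmel, Mlana, Dct, Tyrp1, Sox10 and Mitf were read in every library, with sums from 20120 to 24600 CPM, whereas Tyr had 1, 1, 3 and 7 counts. Of the 10 markers of leukocytes, endothelium and fibroblasts, the defining Ptprc, Cd3e, Cdh5, Kdr and Dcn were at 0 throughout. Their sums were 14.5 to 16.4 CPM in shControl and 11.1 to 12.0 in shLmna for 4 leukocyte genes, nearly all from Cd68, 0.62 to 1.07 against 0 to 0.273 for 3 endothelial genes, and 6.81 to 6.96 against 2.37 to 4.63 for 3 fibroblast genes. Of the melanocyte markers Pmel and Mlana rose (0.41 and 0.51 on the log2 scale) and Sox10 fell (-0.89), and their part in the results below was not tested.

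All 7 hosts passed the filter, so none is missing from the test. Snhg1 rose in the shLmna libraries at an adjusted p under 0.05, 0 hosts fell, and 6 did not pass. That is 14.3% of the hosts, beside 15.2% of all tested genes (5.48% higher and 9.74% lower in shLmna). By the study's 3 limits together (adjusted p under 0.05, a log2 fold change beyond 1 and a mean normalized count over 5), 0 of the 7 were called in edgeR and 0 in DESeq2, beside 7.64% of all tested genes. Before adjustment, 3 of the 7 had p under 0.05 (Snhg1, Snhg6 and Snhg8), beside 30.1% of all genes. The libraries of the groups did not overlap in 5 of the 7 (Snhg1, Snhg6 and Gas5 higher, Snhg3 and Snhg8 lower), beside 60.1% of all genes (29.5% higher and 30.6% lower). Read against these shares, none of the counts sets the 7 hosts apart. The median log2 fold change of the 7 was 0.12 and that of all tested genes was -0.0011.

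**Figure D2:**
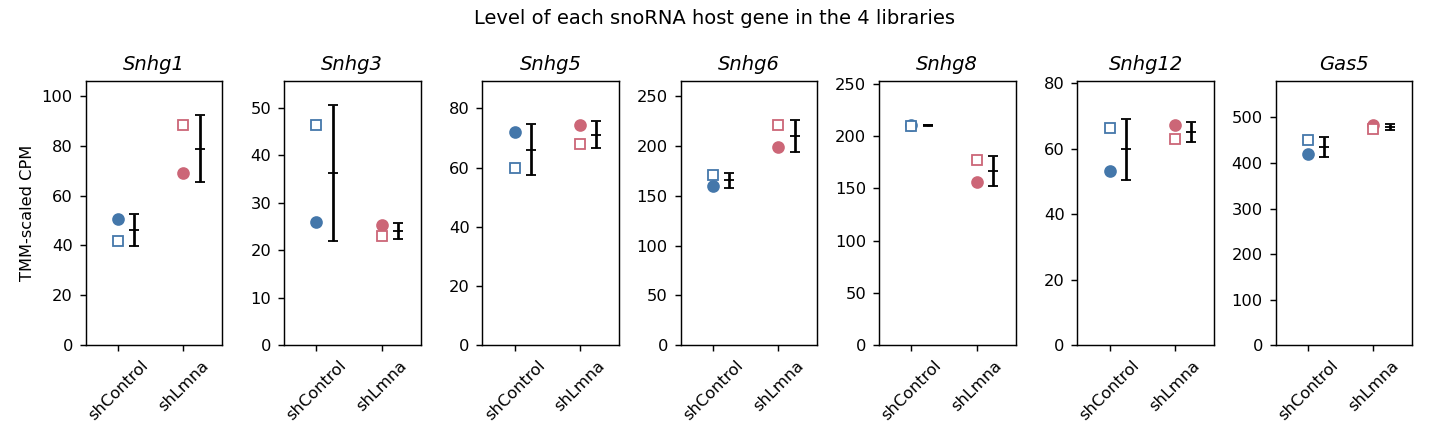
TMM-scaled CPM (vertical axis, from 0, a scale for each gene) of each host in shControl (blue) and shLmna (red), with replicate 1 as a circle and replicate 2 as a square, and the mean ± SD of n = 2 in black beside them. Snhg1, Snhg6 and Gas5 lie higher and Snhg8 lower in both shLmna libraries, and the shControl libraries of Snhg3 are 1.78-fold apart.

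Snhg1 (chr19:8723475-8726443, plus strand, 10 exons) carries the largest set of box C/D snoRNAs after Gas5. It had 164 and 156 counts in shControl 1 and 2, and 175 and 324 in shLmna 1 and 2. On the CPM scale these were 50.8 and 41.8 against 69.2 and 88.3. Both shLmna libraries lay above both shControl libraries, and shLmna 2 was the highest. The means were 46.3 ± 6.39 CPM in shControl and 78.8 ± 13.5 CPM in shLmna (SD, n = 2), and the log2 fold change was 0.78 (SE 0.174, 95% interval 0.39 to 1.17, adjusted p = 0.0152 by edgeR), 1.72-fold. This is under the fold limit of the study. Without shLmna 2, which left 1 library in that group, the log2 fold change was 0.60 and the call was not kept. Without shLmna 1, which also left 1 library in that group, it was 0.94 and the call was kept. A fit with 1 shLmna library has less power for every gene. Between these 2 fits the estimate was larger with shLmna 2 kept, so the size of the rise leaned on that library. Slc3a2, the gene of the CD98 heavy chain, starts 106 bases away from Snhg1 on the opposite strand. Its log2 fold change was -0.13 (SE 0.117, adjusted p = 0.503, edgeR), and its change was not tested against that of Snhg1.

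Gas5 (chr1:161034422-161038539, plus strand, 10 exons) was named for its accumulation in growth-arrested cells, and its RNA can bind the glucocorticoid receptor. It was the most abundant host, as shControl 1 and 2 gave 1357 and 1682 counts and shLmna 1 and 2 gave 1222 and 1741. Its levels were 420 and 450 CPM in shControl and 483 and 474 CPM in shLmna. The shLmna libraries were the higher pair, by a gap smaller than that between the shControl libraries. The log2 fold change was 0.14 (SE 0.117, adjusted p = 0.476, edgeR). Its 95% interval of -0.13 to 0.40 spans 0.917-fold to 1.32-fold, so a larger change of Gas5 lay outside the interval. Glucocorticoid response genes were read beside it. Of 6 tested, 0 passed in either direction in edgeR and in DESeq2, and 2 had an unadjusted p under 0.05, Fkbp5 and Sgk1. Over all tested genes 15.2% passed and 30.1% had an unadjusted p under 0.05 in edgeR. Sgk1, a kinase gene named after its values were seen, had the lowest log2 fold change of the 6 at -0.84, and the highest was 0.60. Of the 3 most counted, Fkbp5, a cochaperone of the receptor, had a log2 fold change of 0.45 (adjusted p = 0.118), Per1, a clock gene, 0.39 (adjusted p = 0.348) and Dusp1, a phosphatase, -0.32 (adjusted p = 0.349), all by edgeR. Zbtb37, which overlaps the start of Gas5 on the opposite strand, had 6 counts at most.

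Snhg6 (chr1:9941959-9944118, minus strand, 4 exons) hosts Snord87. Counted in shControl 1 and 2 were 517 and 638, and in shLmna 1 and 2, 503 and 811. As CPM they were 160 and 171 against 199 and 221, and the groups did not overlap. The log2 fold change was 0.34 (SE 0.122, 95% interval 0.07 to 0.62, adjusted p = 0.0898, edgeR). The counted end of Snhg6 overlaps that of Mcmdc2, a gene on the opposite strand, and 8.38% of its 31-base words also occur there. Mcmdc2 had 1 count in each shControl library and 0 in each shLmna library. The strand setting of the counting is not given in the sources used here, so reads of the overlap cannot be told apart.

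Snhg8 (chr3:123507552-123508404, minus strand, 2 exons) hosts Snora24, a box H/ACA snoRNA. The shControl libraries held 679 and 783 counts, the shLmna libraries 395 and 648. In CPM, shControl 1 and 2 were at 210.3 and 209.6, and shLmna 1 and 2 at 156 and 177. Both shLmna libraries lay below the shControl pair, which nearly coincided. The log2 fold change was -0.33 (SE 0.122, 95% interval -0.61 to -0.06, adjusted p = 0.0989, edgeR). With a correction for GC content it was -0.42 and passed (adjusted p = 0.0471, edgeR). Prss12, a serine protease gene 955 bases away on the other strand, was at 0.31 (adjusted p = 0.386, edgeR).

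Snhg3 (chr4:132348014-132353686, minus strand, 3 exons in the transcript used) hosts the paired Snora73a and Snora73b shown above. In shControl 1 and 2 it was counted 84 and 173 times, in shLmna 1 and 2 64 and 84 times. Its levels were 26.0 and 46.3 CPM in shControl against 25.3 and 22.9 CPM in shLmna. The library shControl 2 stood apart, and shControl 1 was near the shLmna pair. The log2 fold change was -0.60 (SE 0.273, 95% interval -1.21 to 0.01, adjusted p = 0.175, edgeR). Without shControl 2 it was -0.12 (adjusted p = 0.819), and without shControl 1 it was -0.95 (adjusted p = 0.00161), both by edgeR, so 1 control library decides the value. Snhg3 overlaps Rcc1, the exchange factor of the GTPase Ran, on the same strand. Rcc1 was at 0.22 (adjusted p = 0.295, edgeR) and Phactr4, a phosphatase and actin regulator 2237 bases away, at -0.32 (adjusted p = 0.218, edgeR). Of its 31-base words, 71.5% occur in Gm17300, an antisense gene not analysed here.

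Snhg5 and Snhg12 showed overlapping groups. Snhg5 (chr9:88521050-88522929, minus strand, 5 exons) was counted 233 and 224 times in the shControl libraries, 188 and 249 times in the shLmna libraries, or 72.2 and 60.0 against 74.4 and 67.8 CPM. Its log2 fold change was 0.10 (SE 0.152, 95% interval -0.24 to 0.45, adjusted p = 0.693, edgeR). Neither shLmna library of Snhg5 stood clear of the controls. Snhg12 (chr4:132308623-132311024, plus strand, 5 exons) lies on the same chromosome as Snhg3 and hosts snoRNAs of both box classes. The shControl libraries gave 172 and 248 counts, the shLmna libraries 170 and 231, or 53.3 and 66.4 against 67.2 and 62.9 CPM. Its log2 fold change was 0.12 (SE 0.159, 95% interval -0.24 to 0.47, adjusted p = 0.674, edgeR), and shControl 1 was the lowest library. Trnau1ap, a gene for a selenocysteine tRNA cofactor 739 bases away, was at -0.03 (adjusted p = 0.928, edgeR). The intervals of Snhg5 and Snhg12 reached up to 1.36-fold and 1.39-fold.

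As a group the 7 hosts summed to 993 and 1045 CPM in shControl and to 1075 and 1114 CPM in shLmna. The means were 1019 ± 36.9 and 1094 ± 27.7 CPM (SD, n = 2), a ratio of 1.07, and without Gas5 the ratio was 1.05. Gas5 made up 42.3% to 45% of the sum in the 4 libraries. Within the sum, the share of Snhg8 was 21.2% and 20.1% in shControl against 14.5% and 15.9% in shLmna, and that of Snhg1 was 5.12% and 4% against 6.44% and 7.93%. The order of levels was Gas5, Snhg8, Snhg6, Snhg5, Snhg12, Snhg1 and Snhg3 in shControl. In shLmna it was Gas5, Snhg6, Snhg8, Snhg1, Snhg5, Snhg12 and Snhg3. In shControl the neighbours Snhg5 and Snhg12 overlapped, as did Snhg1 and Snhg3 through the high shControl 2 value of Snhg3, and the other neighbours did not. In shLmna Snhg1 overlapped Snhg5, Snhg5 and Snhg12 lay under 1 CPM apart at their nearest libraries, and Snhg6 and Snhg8 did not overlap in either group. These levels are 3′ end counts, for which no division by transcript length was made.

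The fold changes of the 7 hosts were recomputed under 12 other settings. Gas5, which was at 0.09 to 0.18, stayed above 0 and short of the threshold in all 12. Snhg6 stayed above 0 and Snhg8 below 0 in all 12, at 0.19 to 0.42 and at -0.42 to -0.17.

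**Figure D3:**
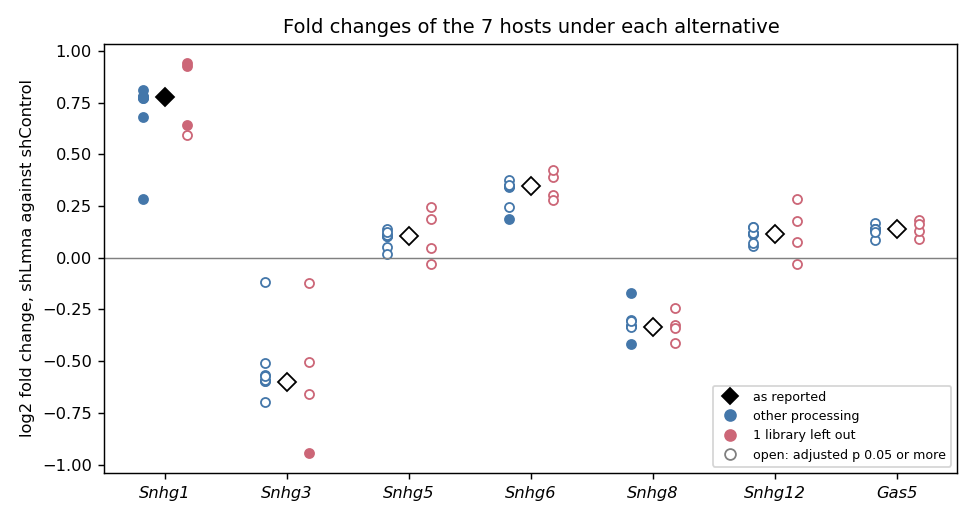
Log2 fold change of shLmna against shControl (vertical axis) for each host as reported (black diamond), under other processing (blue) and with 1 library left out (red), filled where the adjusted p is under 0.05. Snhg1 lies above 0 throughout and is open in 1 setting, without shLmna 2 (0.60), while Snhg3 runs from -0.95 to -0.12.

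Beyond these 7, 12 other noncoding hosts had a row in the matrix and 8 passed the filter. Snhg17 was the single one to pass the test, or 12.5% of the 8, beside 15.2% of all tested genes. Its shControl libraries held 38 and 47 counts, its shLmna libraries 13 and 18, all low, and the groups stood apart. Its log2 fold change was -1.28 (SE 0.307, 95% interval -1.96 to -0.59, adjusted p = 0.0211, edgeR), which also met the study's 3 limits. In DESeq2 its adjusted p was 0.22. In edgeR the call was lost without shControl 2, shLmna 1 and shLmna 2, where the log2 fold change was -1.23, -1.30 and -1.22. Such fits have less power for every gene. The others did not pass: Snhg9 was at -0.32, Dancr at -0.11, Snhg20 at -0.09, Epb4.1l4aos at 0.24, Snhg4 at 0.32, Snhg7 at 0.36 and Snhg10 at 0.43 on the log2 scale. Snhg11, Snhg14, Snhg18 and Rian had 1 count or 0 and were not tested, and Zfas1 was not analysed here.

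**Figure D4:**
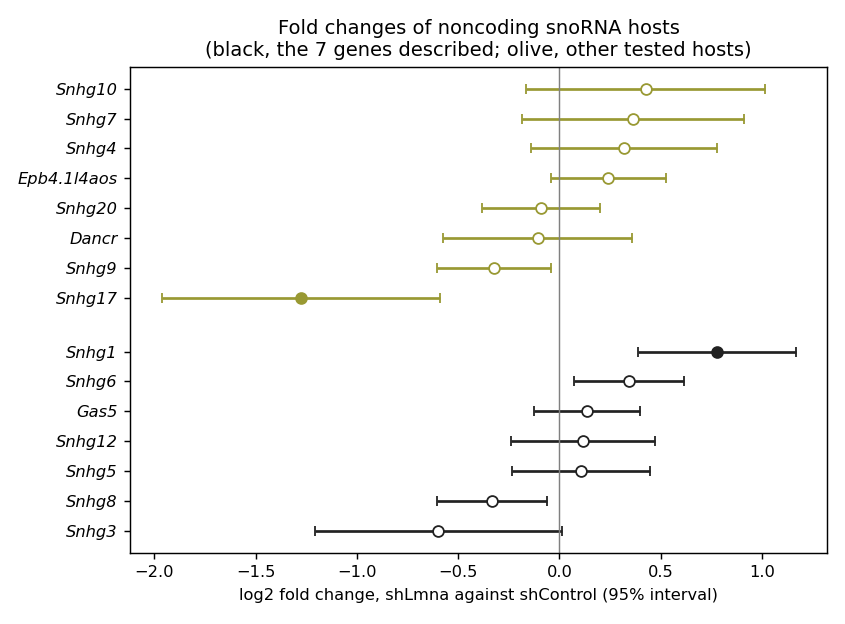
Log2 fold change of shLmna against shControl (horizontal axis) with its 95% interval from edgeR for the 7 hosts (black) and 8 other tested noncoding hosts (olive), where a filled point has an adjusted p under 0.05. Snhg1 at 0.78 and Snhg17 at -1.28 are the filled points, and the intervals of Snhg5, Snhg12, Gas5 and Snhg3 include 0.

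The proteins that bind snoRNAs were read in the same libraries. Of 8 tested core proteins of the snoRNA particle, 1 fell and 0 rose, with a median log2 fold change of 0.13. That is 12.5%, beside 15.2% of all tested genes (9.74% lower and 5.48% higher in shLmna). Gar1, a core protein of H/ACA particles, was the one that fell, at 251 and 261 CPM in shControl and 177 and 175 CPM in shLmna (log2 fold change -0.54, SE 0.117, adjusted p = 0.0134, edgeR). Its companion Nhp2 was at 0.19 (adjusted p = 0.27), and the C/D proteins Nop58 and Nop56 were at 0.29 (adjusted p = 0.199) and 0.38 (adjusted p = 0.0836), all by edgeR. The other H/ACA core proteins, named after their values were seen, were Nop10 at 0.64 (adjusted p = 0.0837) and Dkc1 at 0.07 (adjusted p = 0.815), by edgeR. Nop10 had the highest log2 fold change of the 8.

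Of 9 tested assembly factors, 2 fell and 0 rose, or 22.2% beside 15.2% of all tested genes, with a median of -0.08. Naf1, which loads H/ACA proteins onto the nascent snoRNA, had 77 counts in each shControl library and 7 and 9 in the shLmna libraries. Its groups were far apart, and the log2 fold change was -3.08 (SE 0.311, adjusted p = 1.70e-04, edgeR). Ruvbl1, an ATPase of the assembly machinery, was at 267 and 281 CPM in shControl and 195 and 192 CPM in shLmna (log2 fold change -0.50, SE 0.118, adjusted p = 0.0194, edgeR). Its partner Ruvbl2 was at -0.22 (adjusted p = 0.311) and Nolc1, a snoRNP chaperone, at 0.39 (adjusted p = 0.078), both by edgeR. Gar1 and Ruvbl1 lost their calls when either shLmna library was left out, though their log2 fold changes moved little. Without shLmna 1 and without shLmna 2 these were -0.54 and -0.52 for Gar1 and -0.51 and -0.48 for Ruvbl1. Fits that leave out a library have less power for every gene.

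Spliced host RNA can be cleared by NMD, and 18 genes of NMD and the exon junction complex were tested. Of these, 1 rose and 0 fell, or 5.56% beside 15.2% of all tested genes, with a median of -0.19. Magoh, an exon junction protein, was at 82.1 and 73.6 CPM in shControl and 122 and 120 CPM in shLmna (log2 fold change 0.64, SE 0.130, adjusted p = 0.00995, edgeR). That call was lost without shLmna 1 and without shLmna 2, where the log2 fold change was 0.64 and 0.66. Such fits have less power for every gene. The most counted of the rest, Eif4a3, the helicase of the same complex, was at -0.16 (adjusted p = 0.527), and Smg5, an NMD factor, was at -0.25 (adjusted p = 0.184), both by edgeR.

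Protein-coding genes can host snoRNAs too. Of 34 tested coding hosts, 3 fell and 3 rose, or 17.6% beside 15.2% of all tested genes, with a median of -0.02. Those that fell included the ribosomal protein genes Rpl5 at -3.37 (adjusted p = 2.61e-04) and Rps2 at -0.73 (adjusted p = 0.00123), by edgeR. The Rpl5 row was sparse, at CPM of 28.2 and 40.2 (shControl) against 4.75 and 2.18 (shLmna), the latter pair from only 12 and 8 counts. Rpl4, another ribosomal protein gene, was at 5246 CPM or more in every library. Whether the sparse row held most of the Rpl5 RNA was not tested, so its fold change describes this row alone. The ribosomal protein gene Rpl12 rose, at 0.39 (adjusted p = 0.0208, edgeR). The ribosome assembly genes Wdr43 at 0.71 (adjusted p = 0.0039) and Ppan at 0.53 (adjusted p = 0.0377) rose too, by edgeR. The calls of Rpl5 and Rps2 were kept in all 12 other settings. With 1 library left out, Rpl12 lost its call without shLmna 1 or shLmna 2 (log2 fold change 0.36 and 0.44) and Wdr43 without shLmna 1 (0.65). Ppan lost its call without shControl 2, shLmna 1 and shLmna 2, where its log2 fold change was 0.43, 0.36 and 0.70. Such fits have less power for every gene. Rpl4 and Gnb2l1, the most counted coding hosts that did not pass, were at -0.08 and 0.10.

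Of 75 tested cytosolic ribosomal protein genes, which share the TOP start with the hosts, 9 fell and 6 rose, with a median of -0.09. That is 20%, beside 15.2% of all tested genes. Of 4 tested regulators of TOP messages, 0 passed in edgeR and in DESeq2, and 0 had an unadjusted p under 0.05. Larp1, which binds the TOP tract, was at -0.11 (adjusted p = 0.692), Cnbp at -0.30 (adjusted p = 0.191) and Tia1 at -0.24 (adjusted p = 0.72), by edgeR.

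**Figure D5:**
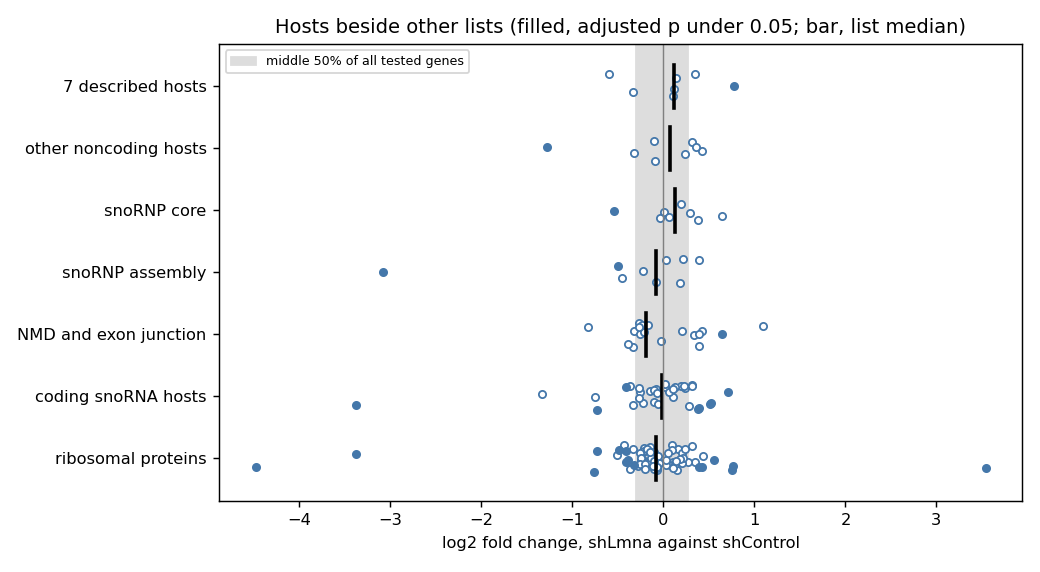
Log2 fold change of shLmna against shControl (horizontal axis) for each tested gene of 7 lists (rows), filled where the adjusted p from edgeR is under 0.05, with the list median as a black bar and the middle 50% of all tested genes (-0.30 to 0.27) in grey. All list medians lie within the grey band, and single genes such as Rpl5 and Naf1 lie far outside it.

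The 5 tested genes whose mean-centred log2 CPM lay closest to the mean profile of the 7 hosts over the 4 libraries were Gba2, Ythdf1, Tsen54, Vps45 and Hacl1, at Euclidean distances of 0.026 to 0.0323. These are genes whose levels were nearly flat across 4 libraries, and the likeness is a description.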

How the data were processed

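Bulk MARS-seq was done on 4 libraries of B16F10 cells, and the sample titles gave the group and replicate of each. Per the study's methods and the submitters' processing notes, the authors trimmed reads with Cutadapt, aligned them to mm10 with STAR 2.4.2a, and counted them with HTSeq in the last 1000 bases of RefSeq genes and 100 bases downstream within the UTAP pipeline. The deposited count matrix was used for all main tests. A second deposited table holds a signal, which is counts divided by a size factor, and the p-values and adjusted p-values of the authors' own comparison, which were not used. Whole counts were recovered from 100% of its values at a tolerance of 0.01, and the matrix exceeded them 1.08-fold to 1.09-fold. Another deposited table holds log2 values that the authors corrected with ComBat, with batches not given in the sources used here.

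Counts were tested with edgeR 4.0.16 in R 4.3.3 (TMM, filterByExpr, group as the one term, two-sided quasi-likelihood test, Benjamini-Hochberg adjustment over 9150 genes), limma 3.58.1 was used for the log2 values, and DESeq2 1.42.0 as an alternative. On simulated data for this comparison over 9150 genes, 47, 35, 45 and 50 of 50 genes with log2 changes of -2, -1, 1 and 2 were recovered. Every gene was simulated with the same spread between replicates, unlike real genes. No smaller change was planted, so recovery of changes as small as those of the hosts was not tested. Replicates differed by more than sampling noise (chi-square per degree of freedom 6.96 in shControl and 3.91 in shLmna) and were kept as separate samples. Totals of 2494880 to 3808843 counts limit the precision for low genes.

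The members and lists were chosen with earlier results of these data known. Genes named were the 7 hosts, Lmna, other noncoding hosts with counts, list genes at adjusted p under 0.05 and the 3 most counted of each list, matrix genes within 5 kb of a host, and the 5 genes nearest to the hosts' mean profile; for the ribosomal protein list counts alone are given, and some genes that the rule names are not reported here. Other settings tried were RLE size factors, library totals, no low-count filter, DESeq2, leaving out each library, a replicate block, recovered counts, the batch-corrected values and a GC correction from the GC content of the last 1000 bases, known for 99.5% of tested genes. Loci, snoRNAs and sequences came from GENCODE vM21. For each host the transcript was taken that is not a retained intron, then one with a RefSeq accession, then the longest.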

Additional observations from a re-analysis of the deposited data

How the results depend on the processing

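Over the 12 alternatives, 76 of 84 log2 fold changes of the 7 hosts kept their direction and side of the threshold. Snhg1 lost its call without shLmna 2 (0.60). Snhg3 passed without shControl 1 (-0.95). Leaving out 1 library at a time gave Snhg1 0.60 to 0.94, Snhg3 -0.95 to -0.12, Snhg5 -0.029 to 0.24 and Snhg12 -0.029 to 0.28, where Snhg5 without shControl 2 and Snhg12 without shControl 1 changed sign. Snhg6 passed in the batch-corrected log2 values (0.19, limma adjusted p = 0.00667), as did Snhg8 (-0.17, limma adjusted p = 0.0176), and Snhg8 passed with the GC correction (-0.42). Many genes passed in the batch-corrected values, 1992 lower and 1784 higher of 10417 tested, beside 891 and 501 of 9150 in the main fit. The causes were not tested. With the replicate block Snhg6 passed (0.34, edgeR adjusted p = 0.0489), and 852 genes were higher at adjusted p under 0.05, beside 501 without the block. The replicate numbers were not shown to pair the libraries (correlation of same-numbered deviations 0.0129, 2 pairs), so the call is given for this setting alone.

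Of 480 values of 40 other named genes, 432 kept direction and side of the threshold, 21 lost a call, 21 gained one and 6 changed sign. Nop56 gained a call in 4 settings and Nolc1 and Fkbp5 in 3 each. Snhg20 reversed with the GC correction (0.0028) and Trnau1ap with library totals (0.0044). With 1 library left out Dancr ran from -0.25 to 0.0555, Trnau1ap from -0.10 to 0.0505, Eif4a3 from -0.38 to 0.0929 and Tia1 from -1.24 to 0.27. Genes called by the 3 limits were 538 lower and 161 higher. These were 28 lower and 2 higher in the batch-corrected values, where Lmna was at -1.54, 74 higher in DESeq2, and 387 to 750 lower and 60 to 232 higher with 1 library left out. At adjusted p alone, 891 were lower and 501 higher. These were 1992 and 1784 in the batch-corrected values, 236 higher in DESeq2, and 414 to 1329 lower and 89 to 775 higher with 1 library left out. With n = 2 a group, depth limits the low hosts most, Snhg3 at 64 to 173 counts among them.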

Other observations

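Snord104 had the most counts of 110 rows with a Snora or Snord symbol, of which 60 were at 0 in every library, and it was chosen after its values were seen. It is a snoRNA of no host described above. The shControl libraries gave 1148 and 857 counts and the shLmna libraries 827 and 1169, or 356 and 229 against 327 and 318.5 CPM, and the groups overlapped. What these poly(A)-primed reads represent was not tested.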
